A study of Mus musculus with 2 samples.

Results

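The aryl hydrocarbon receptor, its partner, its inhibitors and its classic target genes were described here in unstimulated mouse liver. The 8 genes are Ahr, Arnt, Ahrr, Tiparp, Cyp1a1, Cyp1a2, Cyp1b1 and Nqo1. They were taken by gene symbol from the 43346 Ensembl genes of the deposited tables, and all 8 had an entry. RNA selected for polyA tails came from the liver of 1 adult female C57BL/6J mouse, aged 10 weeks, with no treatment named in the labels. The animal gave 2 libraries, named library 1 and library 2 after their technical replicate numbers. The labels date the second library alone, so the date and handling of a library cannot be told apart from the library itself. Means and SDs are over these 2 libraries (n = 2), so the SD holds technical spread and none from animal to animal. In whole liver, fewer cells of a type and less RNA per cell cannot be told apart.

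The aryl hydrocarbon receptor is a transcription factor of the bHLH-PAS family that waits in the cytosol, held by a chaperone complex, until a ligand binds. Dioxins, polycyclic aromatic hydrocarbons and some breakdown products of tryptophan are ligands. The bound receptor enters the nucleus, pairs with ARNT and binds DNA at the core letters GCGTG, known as the dioxin or xenobiotic response element. Among the genes it switches on are cytochrome P450 enzymes that oxidise the ligands, and 2 inhibitors that shut the response down, AHRR and TIPARP. In liver, Cyp1a1 is known as a gene that is nearly silent without a ligand, while Cyp1a2 has a high basal level in hepatocytes.

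Depth was 23309905 expected counts for library 1 and 19525500 for library 2. Mitochondrial genes took 26.4% of counts in library 1 and 7.67% in library 2. Nuclear protein-coding genes held 37.6% and 73.7% of TPM, a length-normalised relative abundance, so the same gene could read differently in the libraries through the rest of the RNA alone. All 8 hepatocyte markers were above 1 TPM, with a summed level of 29112 TPM in library 1 and 67386 in library 2. Of 5 pancreas markers, 4 had 0 counts in both libraries. Blood cell markers summed to 140.1 and 2055 TPM, Kupffer cell markers to 65.9 and 164, endothelial markers to 32.8 and 99.1, stellate cell and fibroblast markers to 169 and 159, bile duct markers to 47.8 and 63.2 and smooth muscle markers to 1.33 and 8.90. Their part in the differences between the libraries was not tested.

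Ahr and Arnt, the receptor and the partner it needs to bind DNA, were present at similar moderate levels. Ahr (ENSMUSG00000019256.13, chromosome 12, 35497974 to 35535038, minus strand) read 16.2 TPM (1932 counts) in library 1 and 11.4 TPM (938 counts) in library 2, with a mean of 13.8 ± 3.39 (SD). It stood at rank 2441 of 21461 nuclear protein-coding genes in library 1 and at rank 4883 in library 2. Arnt (ENSMUSG00000015522.14, chromosome 3, 95434388 to 95497240, plus strand) read 9.12 and 11.5 TPM, from 775 and 682 counts (mean 10.3 ± 1.68, SD). Within a library, Ahr was 1.78 times Arnt in library 1 and 0.995 times Arnt in library 2. The order of receptor and partner was therefore not the same in the 2 libraries.

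Nearly all Ahr signal was assigned to the full coding transcript. That transcript, Ahr-202 with 11 exons, held 97.0% of the gene's TPM in library 1 and 99.1% in library 2, an isoform share in percent as deposited. The retained-intron transcript Ahr-203 took the rest, at 3.01% and 0.95%, and rested on 7.08 and 1.06 counts. Ahr-201, a transcript marked for nonsense-mediated decay, had 0 counts in both libraries.

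The estimated division of Arnt among its transcripts was not the same in the 2 libraries. The coding transcript Arnt-202 held 31.6% of Arnt TPM in library 1 and 80.8% in library 2. Arnt-205, another coding transcript, held 51.9% and 1.09%. In TPM, Arnt-202 read 2.88 and 9.29 and Arnt-205 read 4.73 and 0.13. The authors' deposited TPM intervals, whose level the headers do not state, ran from 0.859 to 5.21 and from 7.54 to 9.34 for Arnt-202, and did not overlap between the libraries. Those of Arnt-205 ran from 2.03 to 6.52 and from 0.000124 to 0.916 and did not overlap either. How often intervals failed to overlap over all transcripts was not counted, so this is not read as particular to Arnt. Within library 1 the intervals of Arnt-202 and Arnt-205 overlapped, so which of them led there was not resolved, and the deposited standard deviation of the estimated count was 119.06 for Arnt-202 (271.73 counts) and 118.97 for Arnt-205 (439.39 counts). It was 20.2 and 17.9 counts in library 2.

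In the annotation, Arnt-202 holds 4 short stretches that Arnt-205 lacks, and 2 of them are coding. The longer of the coding stretches, 45 bases or 15 codons at the 3′ end of exon 19 of 21 in Arnt-202 (GRCm38 chromosome 3, 95493816 to 95493860, plus strand), is shown because the estimated share of Arnt that carries it differed between the libraries. The 45 bases are in capitals, with 15 bases of the spliced transcript on either side in lower case.

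Arnt-202 exon 19 end and exon 20 start: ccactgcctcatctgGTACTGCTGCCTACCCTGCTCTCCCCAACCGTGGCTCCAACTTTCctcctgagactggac

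Of the 5 annotated transcripts in the tables that span this stretch, 4 carry it. They summed to 3.03 TPM in library 1 and 10.4 in library 2, against 4.73 and 0.13 TPM for Arnt-205. The stretch was thus in 39.0% of spanning Arnt TPM in library 1 and in 98.8% in library 2. The other coding stretch is 1 codon at the 5′ end of the same exon, and transcripts with it made up 37.1% and 94.6% of the spanning TPM. With 1 library on each side, this change of share has no replicate check.

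**Figure D1:**
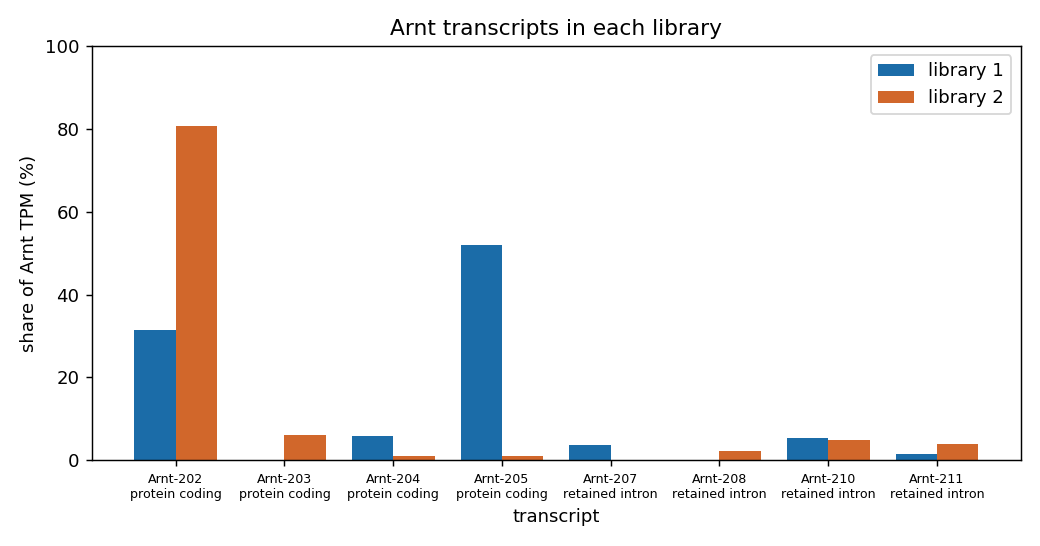
Share of Arnt TPM (vertical axis, percent) held by each transcript with a TPM above 0 in either library (horizontal axis, with its annotated type), in library 1 (blue bars) and library 2 (orange bars). Arnt-205 has the highest estimated share in library 1 at 51.9%, where its TPM interval overlaps that of Arnt-202, and Arnt-202 the highest in library 2 at 80.8%.

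The dedicated repressor was at the edge of detection. Ahrr, which competes with the receptor for ARNT and represses its targets (ENSMUSG00000021575.11, chromosome 13, 74211118 to 74292331, minus strand), had 0 counts in library 1 and 6 in library 2, read as 0 and 0.08 TPM. A count of 0 allows up to 3 counts, or 0.0546 TPM, in library 1, and its exact Poisson interval runs to 3.69 counts. That TPM rests on the deposited effective length of the gene, 2409 bases in library 1 against 4621 in library 2. The coding transcript Ahrr-201 has 4571 bases in library 1, at which 3 counts would give a lower TPM. The 6 counts of library 2 carry an exact Poisson interval of 2.20 to 13.1 counts, which overlaps that of library 1. Such an overlap is not a test of a difference. In the comparison of the libraries below, Ahrr fell under the required 20 counts. With no filter beyond 1 count, all 8 members were tested and Ahrr was not called. Of the 6 counts, 5 were assigned to the coding transcript Ahrr-201 and 1 to a retained-intron transcript.

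Tiparp, the other inhibitor, was clearly present. Its product is a mono-ADP-ribosyltransferase that marks the receptor and lowers its activity (ENSMUSG00000034640.5, chromosome 3, 65528410 to 65555518, plus strand). Tiparp read 4.71 TPM (430 counts) in library 1 and 2.80 TPM (173 counts) in library 2, with a mean of 3.76 ± 1.35 (SD) and all counts assigned to the coding transcript Tiparp-201. The antisense pseudogene 4931440P22Rik overlaps the 5′ end of Tiparp, shares 200 words of 25 bases with it and had 4 and 3 counts. Ahr stood 3.45 times above Tiparp in library 1 and 4.09 times above it in library 2.

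Cyp1a2 and Cyp1a1, neighbouring genes that share part of their sequence, lay far apart in level. Cyp1a2, a P450 that oxidises caffeine and aromatic amines (ENSMUSG00000032310.3, chromosome 9, 57676937 to 57683703, minus strand), read 83.4 TPM (3250 counts) in library 1 and 492 TPM (12937 counts) in library 2, with a mean of 288 ± 289 (SD). Cyp1a1, the P450 most used as a readout of receptor activation (ENSMUSG00000032315.5, chromosome 9, 57697613 to 57703824, plus strand), read 0.29 and 0.27 TPM, from 16 and 10.0 counts (mean 0.28 ± 0.014, SD). Cyp1a2 was thus 288 times Cyp1a1 by TPM in library 1 and 1822 times in library 2. Both libraries put Cyp1a2 far above Cyp1a1, although the size of the gap rests on the few counts of Cyp1a1, with exact Poisson intervals of 9.15 to 26.0 and 4.80 to 18.4 counts.

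The genes are transcribed away from each other, with 13909 bases and no other gene of the tables between them. Of the 1916 words of 25 bases in the Cyp1a2 transcript, 189 (9.86%) occur in Cyp1a1 too, so a read within these words cannot be placed from sequence alone. The deposited standard deviation of the estimated count was 0 for both genes in library 1 and 0.07 counts for each in library 2. Among 100 nuclear protein-coding P450 genes, Cyp1a2 ranked 28 in library 1 and 20 in library 2, with 0.337% and 1.80% of all P450 TPM. Cyp1a1 ranked 63 and 71.

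Cyp1b1, the third P450 target, oxidises steroids and retinoids and is known for its expression outside hepatocytes (ENSMUSG00000024087.3, chromosome 17, 79706953 to 79715041, minus strand). It read 0.27 TPM (30 counts) in library 1 and 0.10 TPM (8 counts) in library 2, with a mean of 0.185 ± 0.120 (SD). The levels of Cyp1a1 and Cyp1b1 differed by 0.02 TPM in library 1 and 0.17 in library 2, and by a mean of 0.095, less than the SD of Cyp1b1.

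Nqo1, a quinone reductase that responds both to this receptor and to the oxidative stress factor NRF2, lay at a moderate level. It read 7.65 TPM (239 counts) in library 1 and 10.5 TPM (222 counts) in library 2 (ENSMUSG00000003849.8, chromosome 8, 107388225 to 107403206, minus strand), with a mean of 9.10 ± 2.04 (SD). Cyp1a2 exceeded it 10.9 times in library 1 and 46.7 times in library 2.

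By mean TPM the order was Cyp1a2, Ahr, Arnt, Nqo1, Tiparp, Cyp1a1, Cyp1b1 and Ahrr, and 5 of the 8 genes (62.5%) had a mean of at least 1 TPM, against 48.0% of all nuclear protein-coding genes. The same order held in both libraries except between Ahr and Arnt. Arnt and Nqo1 differed by a mean of 1.21 TPM, less than the SD of Nqo1 (2.04). Ahr and Arnt differed by 3.53 TPM, beside an SD of 3.39 for Ahr. Cyp1a2 exceeded Ahr by a mean of 274 TPM, less than its own SD of 289, although it was the higher gene in each library. The steps from Nqo1 to Tiparp (5.34 TPM) and from Tiparp to Cyp1a1 (3.47 TPM, beside an SD of 1.35) were larger than the spread. The 0.145 TPM between Cyp1b1 and Ahrr, beside an SD of 0.120, rested on 8 and 6 counts in library 2. Of the 16 TPM values, 4 lay outside their own deposited interval, namely both values of Cyp1a2, which lay above it, and both of Ahrr, which lay below it.

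**Figure D2:**
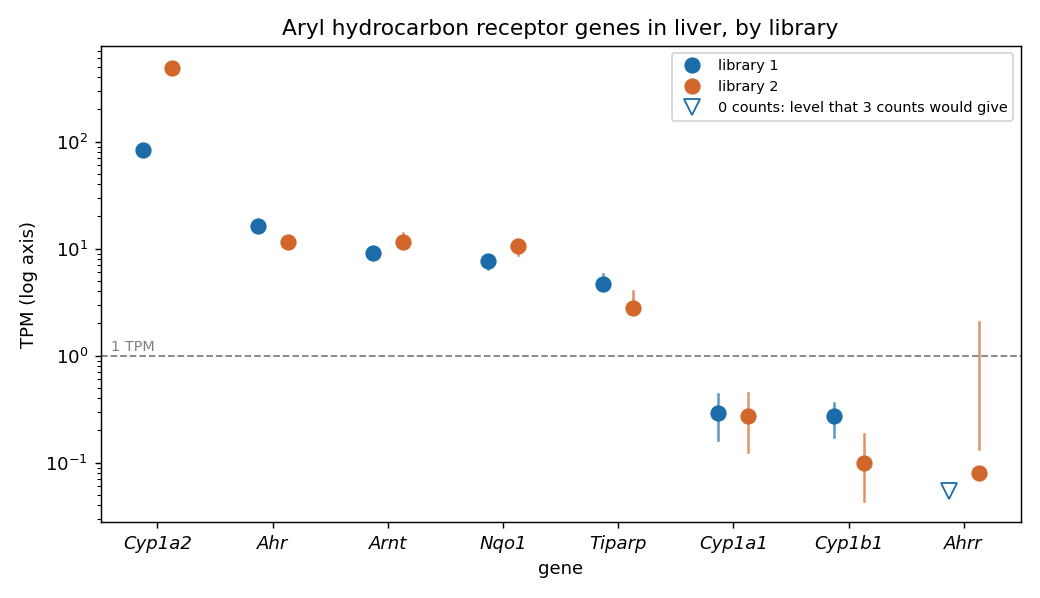
TPM (vertical log axis) of the 8 genes, ordered by mean, in library 1 (blue) and library 2 (orange). Lines show the deposited TPM interval. Where a library had 0 counts, an open triangle marks the level of 3 counts at that library's deposited effective length. Cyp1a2 stands above the other genes in both libraries, and Cyp1a1, Cyp1b1 and Ahrr lie under the dashed line at 1 TPM.

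The genes nearest in level, by Euclidean distance of log2(TPM + 0.1) over the 2 libraries among 21460 nuclear protein-coding genes, were looked up for 3 members. For Cyp1a2 they included the bile acid P450 gene Cyp27a1 (80.2 and 444 TPM) and the lactate dehydrogenase gene Ldha (83.9 and 418). Nearest to Ahr were Taf13 (16.4 and 11.6 TPM), a subunit of the general transcription factor TFIID, Mier1 (16.1 and 11.1) and Zfp945 (16.3 and 11.9). Nqo1 lay nearest to the mRNA cap-binding gene Ncbp1 (7.60 and 10.3 TPM), the Mediator subunit gene Med30 (7.78 and 10.2) and Harbi1 (7.68 and 10.9). Both libraries are of the same animal, so this likeness describes a level and a technical difference, not regulation.

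Promoter windows from RefSeq (GRCm38.p6), 250 bases before to 50 bases after the annotated start, were available for 7 of the 8 genes, all but Ahr. The windows of Cyp1a1, Cyp1a2 and Ahrr are shown because these genes are the neighbours with the widest gap in level and the target with the fewest counts. Matches to GCGTG on either strand are in capitals, each window runs 5′ to 3′ along its gene, and positions count from 0 at the start base.

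Cyp1a1 (chr9:57697363-57697662, plus strand): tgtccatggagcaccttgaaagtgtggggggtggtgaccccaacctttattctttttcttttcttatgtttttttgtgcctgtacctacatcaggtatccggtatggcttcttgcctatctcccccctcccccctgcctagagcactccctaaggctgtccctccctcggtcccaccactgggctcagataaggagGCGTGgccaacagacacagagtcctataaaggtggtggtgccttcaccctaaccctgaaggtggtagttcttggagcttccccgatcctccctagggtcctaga
Cyp1a2 (chr9:57683606-57683905, minus strand): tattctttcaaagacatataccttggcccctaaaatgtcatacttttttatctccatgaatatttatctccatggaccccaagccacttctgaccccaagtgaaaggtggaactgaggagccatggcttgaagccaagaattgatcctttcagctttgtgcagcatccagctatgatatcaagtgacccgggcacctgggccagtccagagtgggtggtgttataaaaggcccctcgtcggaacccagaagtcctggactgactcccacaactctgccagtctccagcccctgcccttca
Ahrr (chr13:74292282-74292581, minus strand): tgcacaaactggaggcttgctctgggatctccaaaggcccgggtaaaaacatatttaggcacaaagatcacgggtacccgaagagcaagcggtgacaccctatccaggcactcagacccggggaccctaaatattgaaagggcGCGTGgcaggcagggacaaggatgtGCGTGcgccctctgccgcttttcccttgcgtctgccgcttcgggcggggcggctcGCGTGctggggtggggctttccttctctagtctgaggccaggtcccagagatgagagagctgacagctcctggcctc

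The Ahrr window held 3 matches, beginning at -107, -82 and -27, and the Cyp1a1 window 1, at -54. None was found in the Cyp1a2 or Nqo1 windows. Arnt (-29), Cyp1b1 (-76, reverse strand) and Tiparp (-170, reverse strand) held 1 each. So 5 of 7 windows held the core, as did 32.4% of 32851 promoter windows of the same length. The longer form TNGCGTG, which contains the core, was found in 1 of the 7, that of Ahrr, and in 5.07% of all windows. The TATA box letters TATAAA on the gene's own strand occurred in the windows of Cyp1a1 (-30), Cyp1a2 (-29) and Nqo1 (-29), and in 8.32% of all windows. GC content of the windows ran from 49.7% in Cyp1a2 to 73.7% in Tiparp, beside a median of 52.7% over all windows. A match describes these letters in this window and not a bound site.

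**Figure D3:**
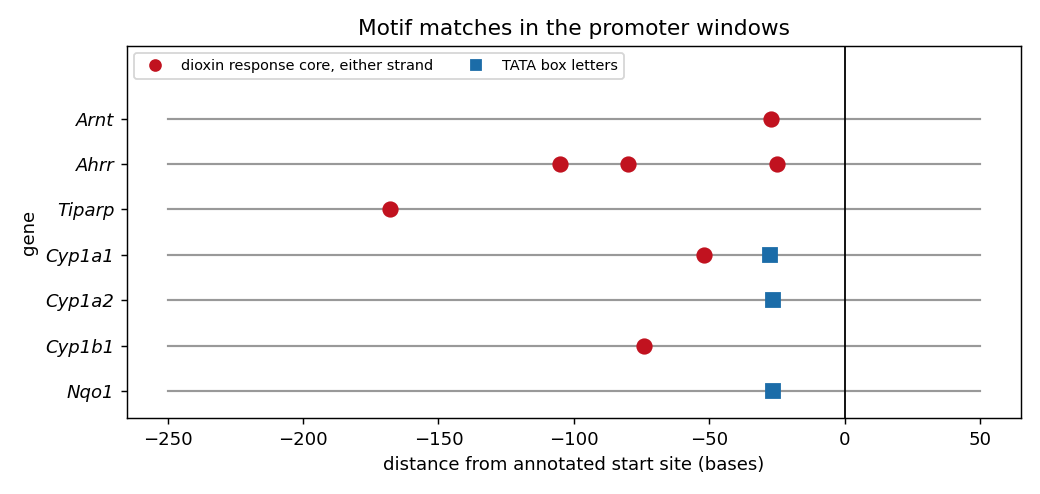
Matches to the dioxin response core on either strand (red circles) and to the TATA box letters (blue squares) along the promoter windows of 7 genes (one line each), by distance in bases from the annotated start (horizontal axis). Ahrr has 3 core matches and no TATA box match, and Cyp1a2 has a TATA box match and no core match.

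The libraries of this animal were then compared to see how far each gene's value depended on the library. Expected counts were scaled with TMM, and each gene's counts were set against each other in an exact binomial test. A call needed a Benjamini-Hochberg adjusted p under 0.05 and a 2-fold difference (a log2 fold beyond 1 or -1). Such a test speaks of the reads in these 2 libraries, not of conditions, and the 95% intervals hold counting error alone. Of 7 members with the required 20 counts, Cyp1a2 was higher in library 2 and Ahr, Tiparp and Cyp1b1 were lower. The 4 calls are 57.1% of the tested members, close to the 56.5% of all 12728 tested genes that were called, of which 32.7% were higher and 23.8% lower. The median log2 fold of the members was -0.96, against 0.042 over all tested genes. With 7 members, that median is the fold of Cyp1a1 alone, which had 26 counts. The member median was -0.41 with counts scaled by library total, against 0.616 over all genes. After a curve on GC content was subtracted, the member median was -0.16, against -0.019.

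Cyp1a2 was 3.18-fold higher in library 2 (log2 fold 1.67, interval 1.61 to 1.73). Ahr was 2.58-fold lower (log2 fold -1.36, interval -1.48 to -1.25) and Tiparp 3.10-fold lower (-1.63, interval -1.90 to -1.38). Ahr and Tiparp thus lay on the same side, as did the estimated folds of Cyp1b1, Arnt, Nqo1 and Cyp1a1. Cyp1a2 alone of the tested members lay on the other. Cyp1b1 was 4.45-fold lower (-2.15, interval -3.57 to -1.07, adjusted p = 3.24e-05 in the exact binomial test), from 30 and 8 counts. As log2 ratios of TPM with 0.1 added to each value, and no test, the differences were 2.56 for Cyp1a2, -0.50 for Ahr, -0.73 for Tiparp and -0.89 for Cyp1b1. The last 3 were less than 2-fold on that scale. For Cyp1b1 this rests on the added 0.1, since without it the TPM of library 2 was 0.370 times that of library 1. Arnt (log2 fold -0.51, interval -0.66 to -0.36) and Nqo1 (-0.43, interval -0.70 to -0.16) were not called, since their folds stayed under the size required. For Cyp1a1 the log2 fold was -0.96 with an interval of -2.30 to 0.23, so its 26 counts could not show a direction. Ahrr, with 6 counts, was not tested under the filter of 20 counts.

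Part of these calls depended on the scaling. Counts scaled by library total moved the median log2 fold of all genes from 0.042 to 0.616. Cyp1a2 (2.25), Tiparp (-1.06) and Cyp1b1 (-1.60) were still called then, beside 41.9% of all genes higher and 7.49% lower, while Ahr (-0.79) was not. Of all called genes, 84.8% were higher in library 2 under total-count scaling, against 57.9% with TMM. Arnt (0.071) and Nqo1 (0.149) had a small positive fold under total-count scaling and were not called. TPM rescaled over nuclear protein-coding genes turned the order of the libraries for both: Arnt then read 24.3 in library 1 and 15.6 in library 2, and Nqo1 20.4 and 14.3. On the same scale Ahr read 43.2 and 15.5 and Cyp1a2 222 and 667, in the same order as before.

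**Figure D4:**
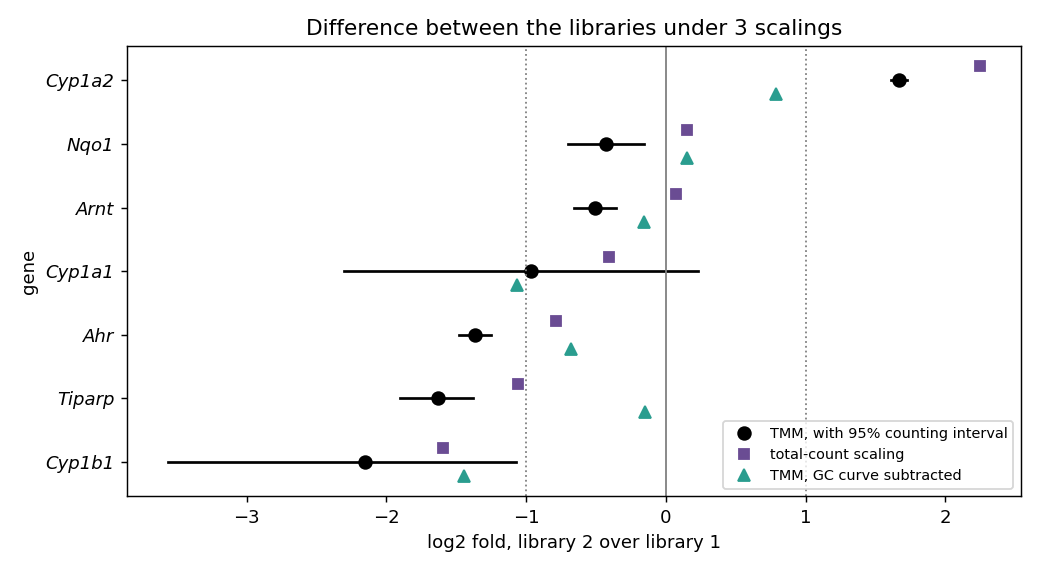
Log2 fold of library 2 over library 1 (horizontal axis) for the 7 tested genes, with TMM scaling (black, line for the 95% counting interval), with total-count scaling (purple squares) and after a curve of fold on GC content was subtracted (green triangles). Dotted lines mark a log2 fold of 1 in size, and Cyp1b1 is the gene that stays beyond them on the low side in all 3.

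The fold between the libraries was higher in genes of higher GC content. Across 12113 tested nuclear genes, which are not independent replicates, the log2 fold and GC content had a Spearman's rho of 0.895. GC content was that of the longest transcript, coding where one was available. Tiparp, with the lowest GC content of the members at 40.4%, had a fold of -1.63, and the median of the 2328 tested nuclear genes at 40 to 45% GC was -1.21. Cyp1a2, with the highest at 52.5%, had a fold of 1.67, and the median of 3140 genes at 50 to 55% was 0.84. The other 5 tested members lay at 46.1 to 49.9% GC, where 3217 genes had a median of -0.44. Ahr (46.2%), Cyp1b1 (46.1%) and Cyp1a1 (49.9%, from 26 counts) were below that median. Arnt (47.9%) and Nqo1 (46.7%) were close to it.

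After a smooth curve of fold on GC content was subtracted, 1 of the 7 members was called. That member was Cyp1b1, at a log2 fold of -1.45 (adjusted p = 0.0115 in the exact binomial test), beside 8.11% of all genes higher and 7.86% lower. Cyp1a2 was left with 0.79 and Ahr with -0.68, both under the size required. Tiparp was left with -0.15 (adjusted p = 0.352 in the exact binomial test), Arnt with -0.16 and Nqo1 with 0.15. Cyp1a1, with 26 counts, stayed beyond the size required at -1.07 but was not called (adjusted p = 0.122 in the exact binomial test).

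**Figure D5:**
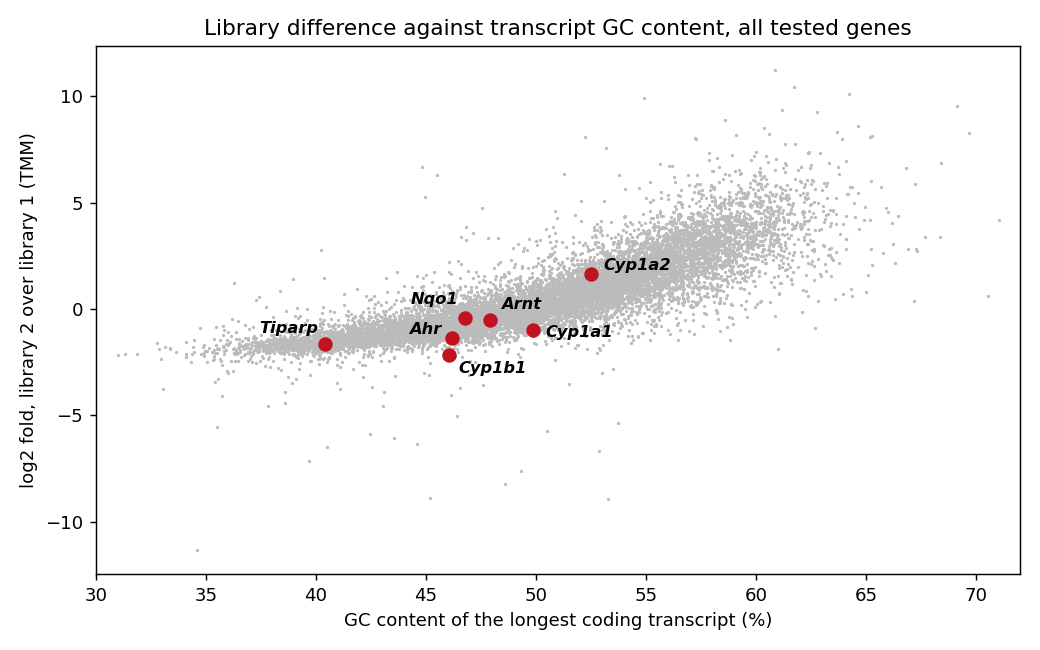
Log2 fold of library 2 over library 1 with TMM scaling (vertical axis) against transcript GC content in percent (horizontal axis). The transcript is the longest of a gene, coding where one was available. All tested genes with a GC value are in grey, and the 7 tested members are in red and named. Tiparp at 40.4% GC lies on the slope of the grey points and Cyp1a2 at 52.5% lies above it. Cyp1b1, Ahr and Cyp1a1, the last from 26 counts, lie under it.

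Genes for the general chaperones that hold the receptor in the cytosol were high. The heat shock gene Hspa8 read 427 and 736 TPM and Hsp90ab1, which codes for the chaperone that clamps the receptor, 269 and 424. Neither was called between the libraries with TMM, but Hsp90ab1 was called higher in library 2 under total-count scaling. With TMM, Hsp90aa1 (132 and 71.0 TPM, log2 fold -1.37) and the cochaperone gene Ptges3 (108 and 57.2 TPM, -1.81) were called lower in library 2. Under total-count scaling, Ptges3 was still called lower and Hsp90aa1 was not called. After the GC curve, Hsp90aa1 was left with a log2 fold of -0.31 and Ptges3 with -0.68, both under the size required. The kinase gene Src, also found in the complex, read 0.05 and 1.27 TPM and was called higher (3.69). Src has a GC content of 59.3%, and after the GC curve it was left with a log2 fold of 0.28.

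Among 13 other bHLH-PAS genes, 5 reached a mean of 1 TPM, as did 48.0% of all nuclear protein-coding genes. Epas1 (14.7 and 31.95 TPM) and Hif1a (20.5 and 12.4), hypoxia-inducible factors that also pair with ARNT, stood in the same range as Ahr. The ARNT paralog Arnt2 had 1 count in library 1 and 0 in library 2. Npas1, Npas4, Sim1 and Sim2, known from neurons, had 0 counts in both libraries. Of the 6 tested genes of this list, Hif1a and the circadian gene Clock were lower and none was higher, with a median of -0.46. These calls and those of the lists that follow are with TMM, where 32.7% of all tested genes were higher and 23.8% lower. Coactivators and other coregulators were all above 1 TPM by mean (10 of 10), led by Sp1 (8.96 and 7.15 TPM) and Med1 (7.13 and 8.83), with the chromatin remodeller Smarca4 higher, Sp1, Rb1 and Nrip1 lower and a median of -0.59.

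Other genes known to respond to the receptor were uneven in basal level, and 6 of 11 reached a mean of 1 TPM. Of all nuclear protein-coding genes, 48.0% did. The bilirubin glucuronosyltransferase Ugt1a1 was highest (343 and 575 TPM), but it shares exons with other Ugt1a genes, so its value is uncertain. Selenbp1 read 16.0 and 339 TPM (log2 fold 3.55, called), the 1 call among 6 tested genes of the list (median 0.06). The aldehyde dehydrogenase Aldh3a1, a strongly inducible target, had 1 count in each library, and Il22, a lymphocyte cytokine, had 0 in both. Of 12 genes of the NRF2 pathway, 11 reached 1 TPM, and the glutathione enzymes Gstm1 (200.1 and 1550.5 TPM) and Gclm (151 and 134) were the highest. The cystine transporter Slc7a11 had 0 counts in both. Of the 11 tested, Gstm1, Keap1, Hmox1 and Mafg were higher and Gclm and Nqo2 lower (median 0.08). Of all tested genes, 32.7% were higher and 23.8% lower with TMM.

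All 5 redox partner genes of the P450 enzymes reached a mean of 1 TPM, as did 6 of the 8 genes for enzymes that make tryptophan-derived ligands. The share over all nuclear protein-coding genes was 48.0%. Cytochrome b5, Cyb5a, read 1626 and 2872 TPM and the membrane protein gene Pgrmc1 1392 and 945, and of the 5 redox partner genes Por, the P450 reductase, and Cyb5r3 were higher and Pgrmc1 lower (median -0.17). Tdo2, which starts tryptophan breakdown in hepatocytes, read 655 and 732 TPM and the kynurenine hydroxylase Kmo 154 and 183. The other 2 were near 0: Ido1, which carries out the same step as Tdo2 in immune cells, had 0 counts in library 1 and 1 in library 2, and Il4i1 had 2 and 8. Both were singled out after their values were seen. The kynurenine transaminase Kyat1 read 5.20 and 100.5 TPM (log2 fold 3.45). Of 6 tested tryptophan genes, Kyat1 and Afmid were higher and Tdo2 lower (median -0.13). Among 8 relatives of Tiparp in the PARP family, 7 reached 1 TPM, led by Parp12 (14.4 and 18.8 TPM) and Parp3 (3.61 and 13.2). Parp10 (1.33 and 11.7 TPM, log2 fold 3.46) was the 1 called higher and Parp8 the 1 lower (median -0.06). The shares over all tested genes with TMM were 32.7% higher and 23.8% lower.

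Under total-count scaling, 41.9% of all genes were called higher and 7.49% lower. The bHLH-PAS genes then had 0 higher calls and 1 lower, and the coregulators 1 and 1. The NRF2 list had 5 higher calls, the PARP list 3, and the xenobiotic response, redox partner and tryptophan lists 2 each. None of these lists had a lower call then. After the GC curve, few calls of either kind were left, beside 8.11% of all genes higher and 7.86% lower. The xenobiotic response and tryptophan lists each had 1 gene higher and none lower, and the coregulator and NRF2 lists each had 1 lower and none higher. The bHLH-PAS, redox partner and PARP lists had no call then. Selenbp1 was left with a log2 fold of 1.70, Kyat1 with 1.77, the coactivator gene Crebbp with -1.05 and Gclm with -2.76. Before the curve, Gclm had a log2 fold of -1.25, at a GC content of 54.2%. That GC content is of 1 transcript, which need not be the one that held the counts.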

How the data were processed

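Liver polyA RNA of 1 mouse was measured in 2 technical libraries. The deposited expected counts are estimated counts per gene or transcript, not normalised. The deposited TPM and FPKM values are normalised to length, and isoform shares were deposited as percent of the TPM of a gene. Values rest on mm10 and annotation M4, per the file headers and descriptions. For the aligner, the quantification tool and the strand setting, the answer is not given in the sources used here.

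Members and lists were chosen with earlier results of these data known. Symbols, coordinates (over the deposited transcripts), types and GC content came from GENCODE M21 on the same assembly, and 42462 of 43346 Ensembl genes had a symbol. GC content was that of the longest coding transcript whose M21 length lay within 10% of the deposited one. For genes without such a coding transcript, the longest transcript of another type was used under the same limit. M21 holds an antisense RNA that overlaps the 5′ end of Ahr and is not in the tables. Reads of such pairs (Tiparp too) cannot be told apart without strand.

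Rounded counts were tested where both libraries together had 20 or more, and TMM factors (0.818 and 1.22) came from edgeR 4.0.16. A prior count of 0.5 went into each fold. With 1 library a side, edgeR's quasi-likelihood fit leaves no residual degrees of freedom. The test was therefore the exact binomial (two-sided, scipy 1.17.1), adjusted over all tested genes, and was tested on simulated data. The simulation held set changes and counting error but no trend on GC content, so it does not cover such a trend. Alternatives were total-count scaling, DESeq2 1.42.0 size factors, other filters, a lowess curve on GC content (span 0.3) and other units. Named list genes are the 2 highest by mean TPM, those called with a log2 fold beyond 3 or -3, and those at 0 counts. Other list genes in the text, such as Arnt2, Aldh3a1, Ido1 and further called ones, were chosen after their values were seen. Results that need certain genes are not reported here, the counts over the chaperone list among them.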

Additional observations from a re-analysis of the deposited data

How the results depend on the processing

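Depth limits Ahrr, Cyp1a1 and Cyp1b1, which rest on 6, 26 and 38 counts over both libraries. The 4 calls among the members fell to 1 (0 higher, 1 lower) after the GC curve, and those over all genes from 7190 (4166 higher, 3024 lower) to 1937 (984 higher, 953 lower). A minimum of 200 counts left 4730 calls (2770 higher, 1960 lower) among 8820 tested genes, with 5 members tested. Total-count scaling left 953 lower calls over all genes. Arnt's log2 fold became 0.071 under total-count scaling and 0.33 as a ratio of TPM with 0.1 added to each value. Nqo1's became 0.149, 0.457 and, after the GC curve, 0.153. DESeq2 size factors, TMM without mitochondrial genes, no count filter and counts summed from transcripts each left 1 member higher and 3 lower. Leaving out either library left 5 members at 1 TPM or more, as did FPKM and TPM rescaled over nuclear protein-coding genes.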
